A study of Arabidopsis thaliana with 6 samples.

Results

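The genes described here encode the enzymes of the tricarboxylic acid (TCA) cycle other than succinate dehydrogenase, the mitochondrial pyruvate dehydrogenase complex (PDC) that feeds it, and the NAD-dependent malic enzymes. They were chosen by function and found by gene identifier. The rule uses no measured value, though it was set with earlier results of these data known. The list holds 31 genes of the 27444 in the tables, and all 31 were found. RNA came from whole seedlings of Arabidopsis thaliana, in 3 lon1-2atg5-1 libraries and 3 atg5-1 libraries. Both genotypes are T-DNA insertion lines in the Columbia-0 background. Both carry the insertion in ATG5, a gene needed to attach ATG8 to membranes in autophagy, and lon1-2atg5-1 also carries one in LON1, the gene of an ATP-dependent protease of the mitochondrial matrix. Seedlings grew in long days under normal conditions with no other treatment, and were 7 days old by the description of the series and 10 days old by the methods of the study. Each genotype is represented by 1 line. The comparison shows how transcript levels in lon1-2atg5-1 differed from those in atg5-1. It does not separate the loss of LON1 alone from its loss in an autophagy mutant, because neither Col-0 nor lon1-2 alone was analysed here.

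The TCA cycle runs in the mitochondrial matrix. Citrate synthase joins acetyl-CoA from the PDC to oxaloacetate, and aconitase, isocitrate dehydrogenase, 2-oxoglutarate dehydrogenase, succinyl-CoA ligase, succinate dehydrogenase, fumarase and malate dehydrogenase return the carbon to oxaloacetate while passing electrons to NAD and ubiquinone. In plants NAD-malic enzyme makes pyruvate from malate inside the mitochondrion, so that malate alone can feed the cycle. Most of these steps have several genes for the same subunit.

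Libraries held 21964283 to 23929531 counts in lon1-2atg5-1 and 22154558 to 22972992 counts in atg5-1. LON1 had 196, 126 and 95 counts in lon1-2atg5-1, against 671, 528 and 602 in atg5-1 (log2 fold change -2.10). ATG5 had 1319, 930 and 636 counts in lon1-2atg5-1, against 516, 520 and 436 in atg5-1 (log2 fold change 0.98), although both genotypes carry the insertion. Replicates within lon1-2atg5-1 varied more than those within atg5-1, with a biological coefficient of variation of 0.135 in lon1-2atg5-1 and 0.0631 in atg5-1. Some tissue markers differed between genotypes too. The shares to set beside their counts are 27.7% higher and 25.8% lower in lon1-2atg5-1 over all genes tested (adjusted p under 0.05, edgeR). The shoot and senescence lists were mixed, and neither is read as a shift of its tissue. Of 8 root markers 5 were lower and 1 (NRT2.1) was higher in lon1-2atg5-1, and their summed FPKM (count scaled by exon length and library total) was 37.6 to 45.0 in lon1-2atg5-1 and 92.7 to 112 in atg5-1. Of 5 maturing seed markers 4 were higher, with summed FPKM of 6.46 to 13.0 in lon1-2atg5-1 and 0.952 to 1.28 in atg5-1. Of 8 markers of photosynthetic shoot tissue, 4 were higher and 1 was lower, at 28104 to 30357 summed FPKM in lon1-2atg5-1 and 25281 to 26272 in atg5-1. Among 3 senescence markers tested 1 was higher and 1 lower, and SAG12, a defining marker of senescent leaves, had at most 1 count in any library. Of 4 flower and pollen markers 1 had enough counts to be tested, and it did not pass the test. The part of these tissue markers in the results below was not tested. In whole seedlings, fewer cells of a type and less RNA per cell cannot be told apart.

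The genes took 0.518%, 0.480% and 0.453% of all counts in the lon1-2atg5-1 libraries, against 0.334%, 0.314% and 0.316% in the atg5-1 libraries, with no overlap between genotypes. Of the 31 genes, 29 had enough counts to be tested. Of these, 26 were higher in lon1-2atg5-1 at an adjusted p under 0.05 and 0 were lower, by the quasi-likelihood test of edgeR with Benjamini-Hochberg adjustment over all 20157 genes tested. At an unadjusted p under 0.05 and by DESeq2 as well, 0 of the genes were lower. Among all genes tested 27.7% were higher and 25.8% were lower. The median log2 fold change was 0.62 over the 29 genes, with a range of 0.02 to 1.09, and -0.00034 over all genes tested. Over 1.5-fold, 17 of the 29 were higher, against 14.0% of all genes tested. Over 2-fold, 2 were higher, ACO3 and mMDH1, against 6.58%. In 27 of the 29 genes every lon1-2atg5-1 library exceeded every atg5-1 library in normalized counts, as it did in 32.3% of all genes tested. The change was therefore broad and moderate in size, and 3 genes did not pass the test: the cytosolic fumarase FUM2, the E1 alpha gene IAR4 and the malic enzyme gene NAD-ME1.

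**Figure D1:**
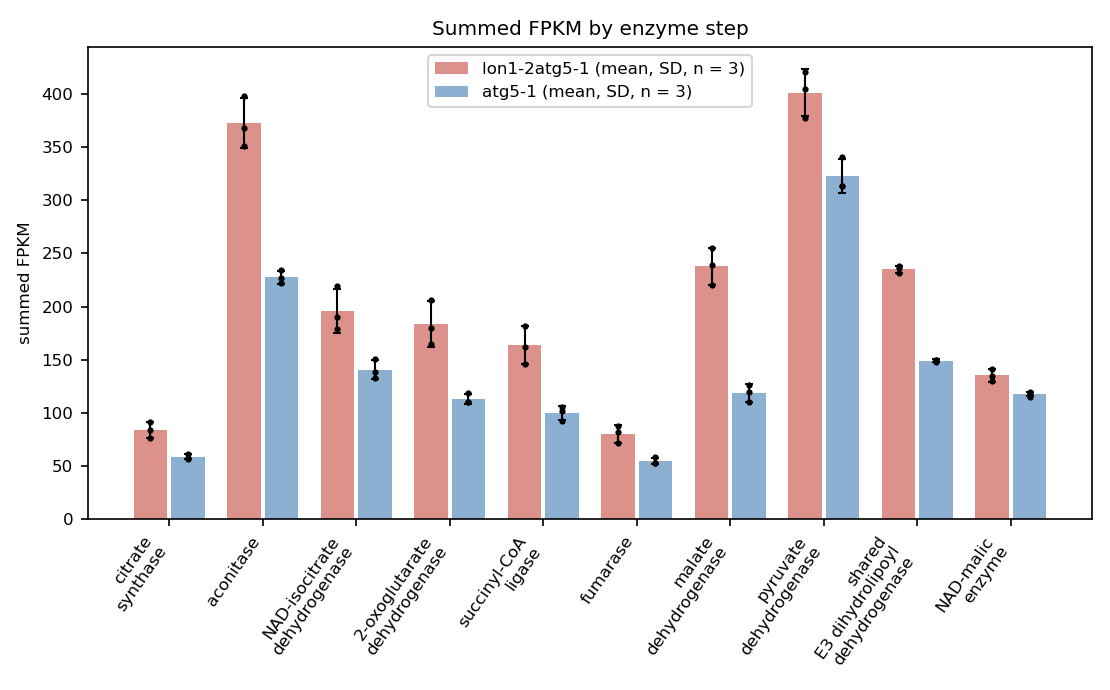
Summed FPKM of the genes of each enzyme step (vertical axis) in lon1-2atg5-1 and atg5-1 seedlings. Bars give the mean and error bars the SD of 3 libraries, which are shown as points. The genotypes do not overlap at any of the 10 steps. Singly, 27 of the 29 genes tested were also higher without overlap in normalized counts, against 32.3% of all genes tested, so the sums are not a separate result. Malate dehydrogenase shows the largest ratio of means (2.01) and NAD-malic enzyme the smallest (1.15).

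Set side by side, the steps differed in the size of the rise. The ratio of mean summed FPKM, lon1-2atg5-1 over atg5-1, was 2.01 for malate dehydrogenase, 1.64 for aconitase, 1.64 for succinyl-CoA ligase and 1.63 for 2-oxoglutarate dehydrogenase. It was 1.58 for the shared E3 subunit, 1.47 for fumarase, 1.43 for citrate synthase and 1.39 for isocitrate dehydrogenase. The fumarase sum includes the cytosolic FUM2, and for the mitochondrial FUM1 alone the ratio was 1.55. The ratio was 1.24 for the E1 and E2 subunits of the PDC and 1.15 for NAD-malic enzyme. Over the 7 steps of the cycle, 18 of 19 genes tested were higher, against 27.7% of all genes tested. Over 1.5-fold, 13 of the 19 were higher, against 14.0%. The median log2 fold change of the 19 was 0.67. The differences between steps were not tested.

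The promoter sequences of 3 genes are printed because these are genes past 1.5-fold from separate steps whose promoters hold several copies of the site II element, a hexamer known from promoters of plant genes for mitochondrial proteins and cell growth. They are the 250 bases before the annotated gene start in the RefSeq TAIR10.1 assembly, 5′ to 3′ on the gene's strand, with site II (TGGGCC or TGGGCT, either strand) in capitals. That of mMDH1 lies at chr1:19857147-19857396 on the minus strand, that of OGDH-E1b at chr5:26303423-26303672 on the plus strand, and that of PDH-E2b at chr3:4595517-4595766 on the plus strand.
mMDH1: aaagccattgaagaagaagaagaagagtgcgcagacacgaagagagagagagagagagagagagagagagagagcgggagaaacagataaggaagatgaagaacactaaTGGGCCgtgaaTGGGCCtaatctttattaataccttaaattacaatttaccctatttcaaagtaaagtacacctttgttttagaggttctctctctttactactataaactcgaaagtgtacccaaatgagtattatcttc
OGDH-E1b: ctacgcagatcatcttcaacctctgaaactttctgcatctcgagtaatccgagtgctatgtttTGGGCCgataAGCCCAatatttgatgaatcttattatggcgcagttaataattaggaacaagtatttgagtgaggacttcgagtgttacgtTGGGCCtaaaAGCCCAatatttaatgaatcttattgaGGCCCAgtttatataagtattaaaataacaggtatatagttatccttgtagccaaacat
PDH-E2b: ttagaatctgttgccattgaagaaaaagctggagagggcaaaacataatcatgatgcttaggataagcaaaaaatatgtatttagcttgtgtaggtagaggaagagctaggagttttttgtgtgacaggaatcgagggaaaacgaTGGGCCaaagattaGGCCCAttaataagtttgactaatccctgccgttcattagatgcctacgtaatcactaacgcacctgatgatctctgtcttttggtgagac

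Counted from the gene start, the first bases of the 2 copies in mMDH1 lay at -141 and -130, and those of the 5 copies in OGDH-E1b at -187, -177, -96, -86 and -59. PDH-E2b held copies at -105 and -91. In windows from 250 bases before to 50 after the start, TGGGCC was found in 8 of 31 genes (25.8%), against 18.5% of genes tested and 15.5% of all promoters. TGGGCT was found in 4 (12.9%), against 16.2% of genes tested and 14.2% of all promoters. Either form was found in 10 (32.3%), against 25.0% and 21.7%. All 10 of these genes were higher in lon1-2atg5-1, but so were 26 of the 29 genes tested, against 27.7% of all genes tested. The other 16 genes called higher held neither form, and a link between site II and the rise was not tested. The mitochondrial dysfunction motif is known from genes that answer mitochondrial stress through NAC factors. It was searched only in the form CTTG, 5 bases of any kind, CAAG, and variants were not searched. This form was in 0 of the 31 windows and in 0.71% of those of genes tested. At a share that low, 0 of 31 does not set these genes apart from others. The telo-box AAACCCTA was in 0, against 5.46% of genes tested. The G-box CACGTG was in 2 (OGDH-E2a and NAD-ME2), or 6.45%, against 8.79% of genes tested. These motifs can overlap in principle (TGGGCC followed by CA reads as TGGGCC on both strands, and a G-box can end in the TG of site II), but no matches overlapped in the 31 windows. A match is a description of these letters only.

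**Figure D2:**
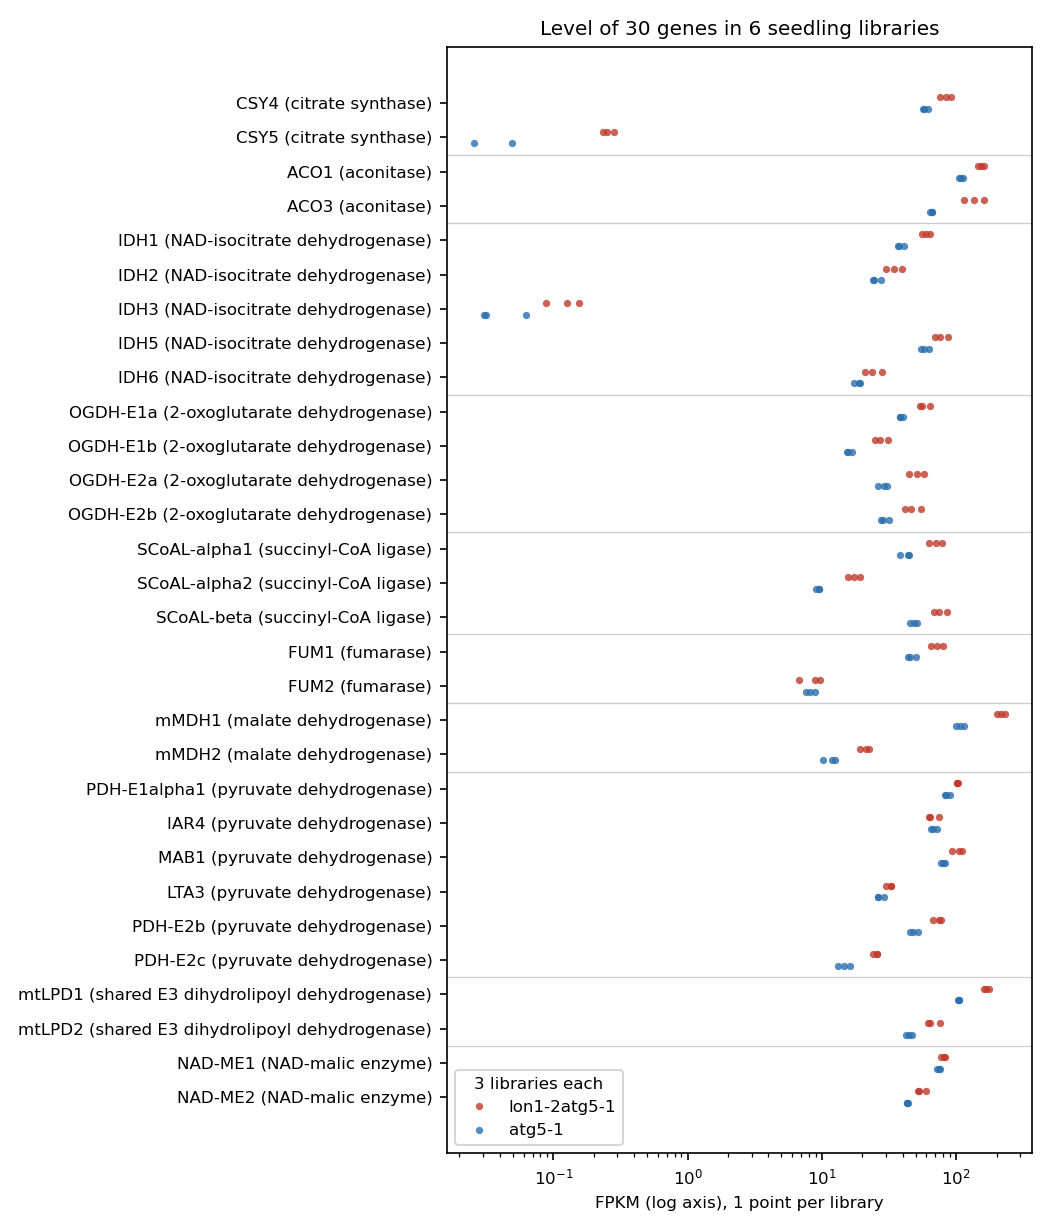
FPKM of 30 of the genes on a log axis, with 1 point per library, lon1-2atg5-1 above atg5-1 within each row. An atg5-1 library with 0 counts of CSY5 is not drawn. CSY5 and IDH3 lie far below the other genes, and mMDH1, mtLPD1, ACO1 and ACO3 are the most abundant in lon1-2atg5-1.

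Levels per length ranged widely, and most genes were well expressed. In atg5-1 the 29 tested genes had mean FPKM between 8.17 and 109, with 28 of them above the median of 8.97 over all genes tested. The median FPKM of the 29 was 67.1 in lon1-2atg5-1 and 44.6 in atg5-1. Across these genes the level in atg5-1 and the log2 fold change had a Spearman rho of -0.18, given as a description over genes that share the same libraries.

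Citrate synthase, which condenses acetyl-CoA with oxaloacetate, has a mitochondrial form encoded by CSY4 (AT2G44350, chr2:18316278-18320789) and CSY5 (AT3G60100). CSY4 had 91.1, 83.5 and 75.6 FPKM in the lon1-2atg5-1 libraries, against 61.3, 56.8 and 57.4 FPKM in the atg5-1 libraries. All lon1-2atg5-1 libraries were higher, and the log2 fold change was 0.54 (SE 0.069, adjusted p = 0.000402, edgeR), which is below 1.5-fold. CSY5 had 10, 11 and 10 counts in lon1-2atg5-1 and 2, 1 and 0 counts in atg5-1, and was too low to be tested. Its summed counts had a ratio of 10.2 when scaled by library totals, with an exact 95% interval of 3.17 to 52.0 that covers counting error only. Exons of CSY5 match those of CSY4 at 91.9% identity over 669 bp, and CSY4 had at least 2504 counts in each library, and whether reads of the pair were shared in counting was not tested.

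Aconitase converts citrate to isocitrate, and its genes encode proteins found in both mitochondria and cytosol. ACO3 (AT2G05710, chr2:2141329-2146678) had the largest fold change of all 29 genes. It had 160, 135 and 114 FPKM in lon1-2atg5-1, against 66.0, 63.8 and 65.8 FPKM in atg5-1. Every lon1-2atg5-1 library stood far above the atg5-1 libraries, which lay close together, and the log2 fold change was 1.09 (SE 0.10, adjusted p = 0.000101, edgeR). ACO1 (AT4G35830) had 144, 152 and 161 FPKM in lon1-2atg5-1 and 112, 109 and 104 FPKM in atg5-1, with a log2 fold change of 0.52 (SE 0.081). The library ranked highest for ACO3 among lon1-2atg5-1 was the lowest for ACO1. The log2 ratio of ACO3 to ACO1 was 0.15, -0.17 and -0.49 in lon1-2atg5-1, against -0.77, -0.77 and -0.67 in atg5-1, so the balance lay further towards ACO3 in every lon1-2atg5-1 library.

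NAD-isocitrate dehydrogenase oxidises isocitrate to 2-oxoglutarate with a catalytic and a regulatory subunit. Its 4 tested genes were all higher, and 1 of them, the regulatory IDH1 (AT4G35260, chr4:16774142-16776371), passed 1.5-fold. IDH1 had 64.3, 59.9 and 55.2 FPKM in lon1-2atg5-1, against 41.2, 37.3 and 36.8 FPKM in atg5-1 (log2 fold change 0.66, SE 0.066, adjusted p = 0.000119, edgeR). The other regulatory gene IDH2 had a log2 fold change of 0.48 (SE 0.093). For the catalytic subunits the values were 0.43 for IDH5 (SE 0.080) and 0.41 for IDH6 (SE 0.098). The summed FPKM of the regulatory genes was 1.48 times that of atg5-1 and that of the catalytic genes 1.32 times. IDH3 (AT4G35650), also a regulatory gene, had 5, 4 and 3 counts in lon1-2atg5-1 and 1, 2 and 1 in atg5-1. The ratio of its summed counts was 2.95, with an exact 95% interval of 0.896 to 12.6, so no difference was detectable at this depth.

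2-oxoglutarate dehydrogenase makes succinyl-CoA with an E1 subunit, an E2 subunit and the E3 subunit described further on. All 4 of its E1 and E2 genes rose past 1.5-fold. OGDH-E2a (AT5G55070, chr5:22347211-22351168) had 57.4, 50.9 and 44.3 FPKM in lon1-2atg5-1, against 30.5, 26.3 and 29.2 FPKM in atg5-1 (log2 fold change 0.85, SE 0.088, adjusted p = 0.000143, edgeR). OGDH-E2b (AT4G26910) had 54.6, 46.2 and 41.4 FPKM in lon1-2atg5-1 and 31.6, 28.5 and 27.6 FPKM in atg5-1, a log2 fold change of 0.72 (SE 0.091). OGDH-E2a made up 51.8% ± 0.59 of E2 FPKM in lon1-2atg5-1 and 49.5% ± 1.76 in atg5-1 (SD, n = 3 each), with overlap. Of the E1 genes, OGDH-E1b (AT5G65750, with 5 site II copies) had 30.8, 27.0 and 25.0 FPKM in lon1-2atg5-1 and 15.7, 16.7 and 15.4 FPKM in atg5-1, a log2 fold change of 0.82 (SE 0.076). OGDH-E1a (AT3G55410), the more abundant, had 63.5, 55.9 and 53.6 FPKM in lon1-2atg5-1 and 40.4, 38.2 and 38.2 FPKM in atg5-1, a log2 fold change of 0.59 (SE 0.069). OGDH-E1b made up 32.4% ± 0.46 of E1 FPKM in lon1-2atg5-1 and 29.05% ± 1.23 in atg5-1 (SD, n = 3 each).

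Succinyl-CoA ligase releases succinate from succinyl-CoA and is the step of the cycle that makes a nucleoside triphosphate directly. Its 3 genes rose past 1.5-fold. SCoAL-alpha2 (AT5G23250, chr5:7830318-7832843) had 19.3, 17.3 and 15.7 FPKM in lon1-2atg5-1, against 9.59, 9.54 and 9.06 FPKM in atg5-1 (log2 fold change 0.92, SE 0.077, adjusted p = 5.85e-05, edgeR). The more abundant alpha gene, SCoAL-alpha1 (AT5G08300), had 77.8, 70.3 and 62.6 FPKM in lon1-2atg5-1 and 44.9, 37.9 and 44.0 FPKM in atg5-1, a log2 fold change of 0.76 (SE 0.086). The single beta gene, SCoAL-beta (AT2G20420), had 85.03, 74.7 and 68.0 FPKM in lon1-2atg5-1 and 51.0, 44.9 and 48.6 FPKM in atg5-1, a log2 fold change of 0.68 (SE 0.080). The summed alpha level and the beta level remained near each other, at 87.6 ± 9.42 and 75.9 ± 8.60 FPKM in lon1-2atg5-1 and at 51.6 ± 3.74 and 48.2 ± 3.04 FPKM in atg5-1 (SD, n = 3 each).

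Fumarase hydrates fumarate to malate. Its mitochondrial form FUM1 (AT2G47510, chr2:19498229-19502488) rose, and the cytosolic form FUM2 (AT5G50950), which is known for fumarate accumulation in Arabidopsis leaves, did not pass the test. FUM1 had 79.1, 72.2 and 64.5 FPKM in lon1-2atg5-1, against 50.5, 45.0 and 43.9 FPKM in atg5-1 (log2 fold change 0.66, SE 0.079, adjusted p = 0.000295, edgeR). FUM2 had 8.89, 9.62 and 6.73 FPKM in lon1-2atg5-1, against 7.56, 8.15 and 8.81 FPKM in atg5-1. Its genotypes overlapped, and the log2 fold change was 0.07 (SE 0.13, adjusted p = 0.677, edgeR). Whether the 2 fumarases differ in their response was not tested. Their exons match at up to 96.6% identity over 327 bp, so reads from FUM1 and FUM2 may in part have been left out or shared in counting.

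Mitochondrial malate dehydrogenase regenerates oxaloacetate, and it showed the largest rise in summed level. mMDH1 (AT1G53240, chr1:19854615-19857146) had 233, 217 and 201 FPKM in lon1-2atg5-1, against 114, 99.97 and 107 FPKM in atg5-1 (log2 fold change 1.05, SE 0.073, adjusted p = 2.7e-05, edgeR). It was the most abundant of the genes in lon1-2atg5-1. mMDH2 (AT3G15020) had 22.3, 21.3 and 19.2 FPKM in lon1-2atg5-1 and 12.5, 10.11 and 11.8 FPKM in atg5-1, a log2 fold change of 0.89 (SE 0.085). mMDH1 supplied 91.2% ± 0.12 of the summed FPKM in lon1-2atg5-1 and 90.3% ± 0.41 in atg5-1 (SD, n = 3 each).

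**Figure D3:**
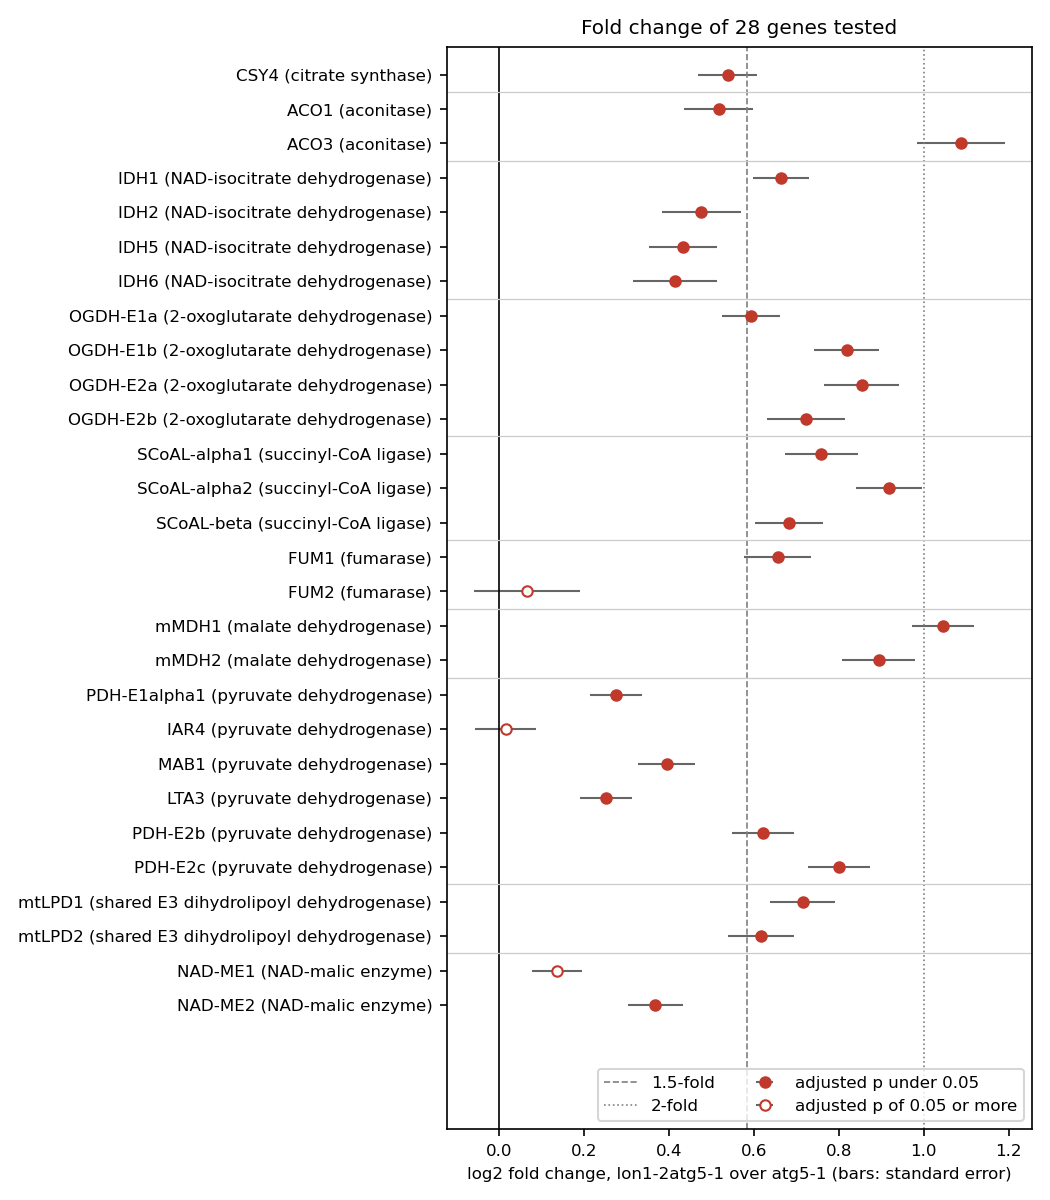
Log2 fold change of 28 of the genes tested, lon1-2atg5-1 over atg5-1 (horizontal axis), with standard errors as bars, in the order of the pathway. Filled points passed an adjusted p of 0.05 in edgeR, and the vertical lines mark 0, 1.5-fold and 2-fold. ACO3 (1.09) and mMDH1 (1.05) lie past 2-fold, and FUM2, IAR4 and NAD-ME1 are open points.

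The PDC oxidises pyruvate to acetyl-CoA. Its E1 alpha and E1 beta subunits decarboxylate pyruvate, its E2 subunit transfers the acetyl group, and E3 reoxidises the lipoyl arm of E2. By subunit, the ratio of summed FPKM was 1.10 for E1 alpha, 1.29 for E1 beta and 1.44 for E2, and the differences between these ratios were not tested. PDH-E2c (AT1G54220) had 25.8, 25.5 and 23.9 FPKM in lon1-2atg5-1, against 16.2, 13.2 and 14.7 FPKM in atg5-1 (log2 fold change 0.80, SE 0.073, adjusted p = 8.68e-05, edgeR). PDH-E2b (AT3G13930, chr3 promoter printed above) had 77.4, 74.9 and 66.6 FPKM in lon1-2atg5-1 and 52.2, 47.6 and 45.2 FPKM in atg5-1, a log2 fold change of 0.62 (SE 0.073). LTA3 (AT3G52200), the other gene for an E2 subunit, rose with a log2 fold change of 0.25 (SE 0.061). It made up 24.5% ± 0.43 of E2 FPKM in lon1-2atg5-1 and 30.1% ± 0.27 in atg5-1 (SD, n = 3 each).

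The E1 genes of the PDC changed little or moderately. MAB1 (AT5G50850), the single E1 beta gene, had 110, 104 and 93.1 FPKM in lon1-2atg5-1, against 82.1, 79.1 and 76.7 FPKM in atg5-1 (log2 fold change 0.39, SE 0.067, adjusted p = 0.00165, edgeR). PDH-E1alpha1 (AT1G59900) rose by 0.28 on the log2 scale (SE 0.061). Its paralog IAR4 (AT1G24180), first known from a mutant that is insensitive to an auxin conjugate, had 74.3, 63.8 and 62.8 FPKM in lon1-2atg5-1, against 71.3, 64.5 and 66.6 FPKM in atg5-1. The genotypes overlapped at IAR4, with a log2 fold change of 0.02 (SE 0.071, adjusted p = 0.861, edgeR). PDH-E1alpha1 supplied 60.4% ± 2.39 of E1 alpha FPKM in lon1-2atg5-1 and 56.0% ± 0.27 in atg5-1 (SD, n = 3 each). Pyruvate dehydrogenase kinase (PDK, AT3G06483), which phosphorylates and switches off E1 alpha, had 1592, 1639 and 1840 counts in lon1-2atg5-1 and 1778, 1790 and 1652 in atg5-1 and did not pass the test (log2 fold change -0.04, adjusted p = 0.695, edgeR).

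Dihydrolipoyl dehydrogenase (E3) is shared in plant mitochondria by the PDC, 2-oxoglutarate dehydrogenase, branched-chain keto acid dehydrogenase and glycine decarboxylase. Both mitochondrial genes rose past 1.5-fold. mtLPD1 (AT1G48030) had 160, 168 and 176 FPKM in lon1-2atg5-1, against 102, 105 and 105 FPKM in atg5-1 (log2 fold change 0.71, SE 0.077, adjusted p = 0.000172, edgeR). mtLPD2 (AT3G17240) had 75.4, 63.7 and 62.1 FPKM in lon1-2atg5-1 and 47.0, 42.3 and 44.5 FPKM in atg5-1, a log2 fold change of 0.62 (SE 0.077). Summed E3 levels were the least variable of all steps, at 235 ± 3.43 FPKM in lon1-2atg5-1 and 149 ± 1.14 FPKM in atg5-1 (SD, n = 3 each). The complexes that share E3 did not move together. For the counts that follow, the shares over all genes tested are 27.7% higher and 25.8% lower. Of 5 genes of branched-chain keto acid dehydrogenase, which acts in leucine, isoleucine and valine breakdown, 5 were lower, with a median log2 fold change of -0.79. The largest difference was at BCKDH-E1alpha, with 890, 948 and 1355 counts in lon1-2atg5-1 and 3496, 3984 and 3043 in atg5-1 (log2 fold change -1.72, adjusted p = 0.0001, edgeR). Of 6 genes of glycine decarboxylase, the photorespiratory complex, 1 was higher (GLDH1, log2 fold change 0.32) and 1 was lower (GLDP2, -0.80), with a median of 0.06. Over both complexes 2 genes in place of 1 were higher without lon1-2atg5-1 replicate 1.

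NAD-malic enzyme decarboxylates malate to pyruvate and is built from the products of NAD-ME1 (AT2G13560) and NAD-ME2 (AT4G00570). NAD-ME2 had 60.03, 52.5 and 52.0 FPKM in lon1-2atg5-1, against 43.0, 42.9 and 43.9 FPKM in atg5-1 (log2 fold change 0.37, SE 0.065, adjusted p = 0.00195, edgeR). NAD-ME1 had 81.0, 82.5 and 77.5 FPKM in lon1-2atg5-1, against 76.3, 72.3 and 74.8 FPKM in atg5-1. All lon1-2atg5-1 libraries were above those of atg5-1 at NAD-ME1 also, but the log2 fold change of 0.14 (SE 0.059) did not pass the test (adjusted p = 0.0790, edgeR).

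**Figure D4:**
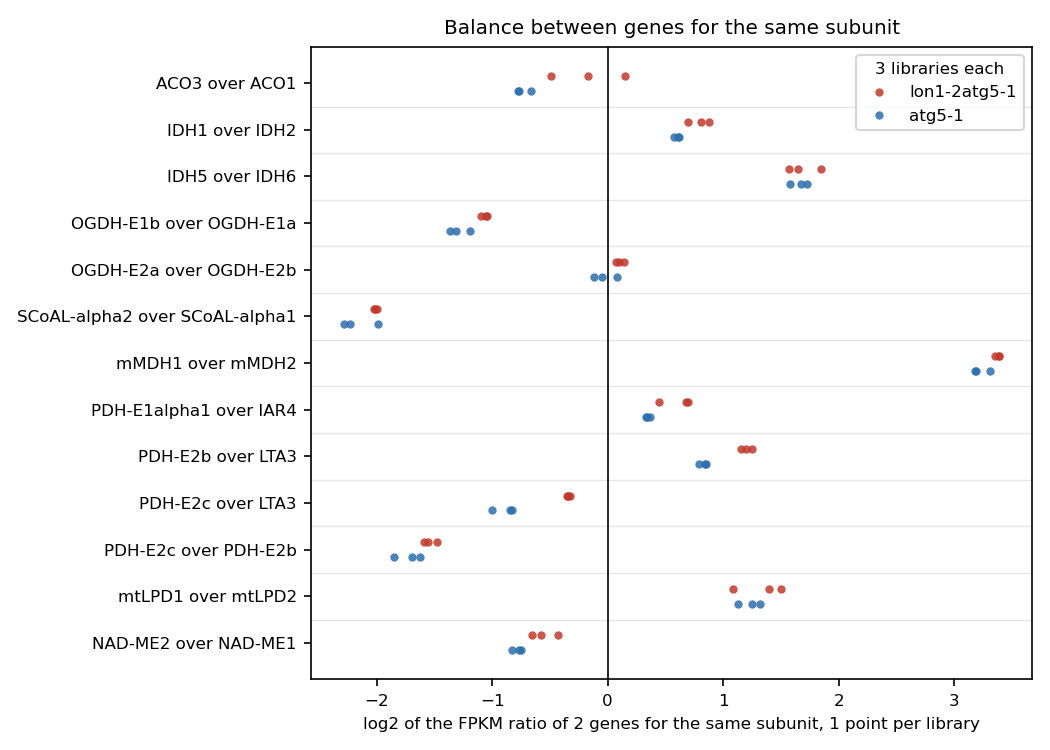
Log2 of the FPKM ratio of 2 genes for the same subunit (horizontal axis), with 1 point per library, lon1-2atg5-1 above atg5-1 in each row. The gene with the larger fold change is named first in each pair. In 9 of the 13 pairs drawn the 3 lon1-2atg5-1 points lie apart from the 3 atg5-1 points, as for PDH-E2c over LTA3, and in the other 4 they overlap.

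The balance between genes for the same subunit was compared in 15 pairs by the log2 ratio of their FPKM. In each pair the gene with the larger fold change in these data was set first, so the positive sign of the differences carries no information. In 10 pairs the genotypes did not overlap, a count with no share over other gene pairs beside it. The largest differences were 0.56 for ACO3 over ACO1 (mean ratio -0.17 in lon1-2atg5-1 and -0.74 in atg5-1) and 0.55 for PDH-E2c over LTA3 (-0.34 in lon1-2atg5-1 and -0.89 in atg5-1). The difference was 0.37 for PDH-E2b over LTA3, 0.26 for PDH-E1alpha1 over IAR4 and 0.23 for NAD-ME2 over NAD-ME1. A two-sided exact permutation test of 3 against 3 libraries cannot give a p below 0.10. Each of these 10 pairs had that smallest p, with an adjusted p of 0.15 over the 15 pairs. The test could not pass 0.05 at any pair, so it decides neither for nor against a shift in balance. The pairs within aconitase and within the E2 subunit share genes. For IDH5 over IDH6 the genotypes overlapped, with a difference of 0.02.

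Most of the genes shared an order among libraries. Of 29 genes, 22 were highest in replicate 1 and 21 were lowest in replicate 3 among the lon1-2atg5-1 libraries, in counts scaled by the TMM method, against 37.0% and 38.8% of all genes tested. LON1 and ATG5 had the same order of counts in that genotype. Within atg5-1, 22 were highest in replicate 1, against 35.5% of all genes tested. These counts are descriptions with no test. ACO1 and mtLPD1 ran the other way in lon1-2atg5-1 FPKM, with replicate 3 highest. Leaving out any one library left 26 or 27 of the genes higher and 0 lower, with a median log2 fold change of 0.60 to 0.67. The count was 27 without atg5-1 replicate 2 and without atg5-1 replicate 3, fits in which 30 genes in place of 29 had enough counts to be tested.

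Another annotated gene overlaps 12 of the 31 genes, 9 of them on the opposite strand, among which are CSY4, ACO3, IDH2, IDH6, OGDH-E2b, PDH-E1alpha1, MAB1 and PDH-E2b. Libraries were stranded, but no source used here states the strand setting of the counting, so reads of such partners cannot be told apart with certainty. OGDH-E1b, mMDH2 and NAD-ME2 overlap a gene on the same strand, where a strand setting does not separate reads. Exons of mMDH2 match AT3G15010, its partner, at 100% identity over 277 bp. Of the 17 tested genes with no annotated overlap, 14 were higher, and FUM2, IAR4 and NAD-ME1 were the others. The genes with an overlap were all higher. Exons of SCoAL-alpha1 and SCoAL-alpha2 match at 90.05% identity over 814 bp, and those of PDH-E2b and PDH-E2c at 91.2% over 1042 bp, so the split of reads within these pairs is uncertain.

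**Figure D5:**
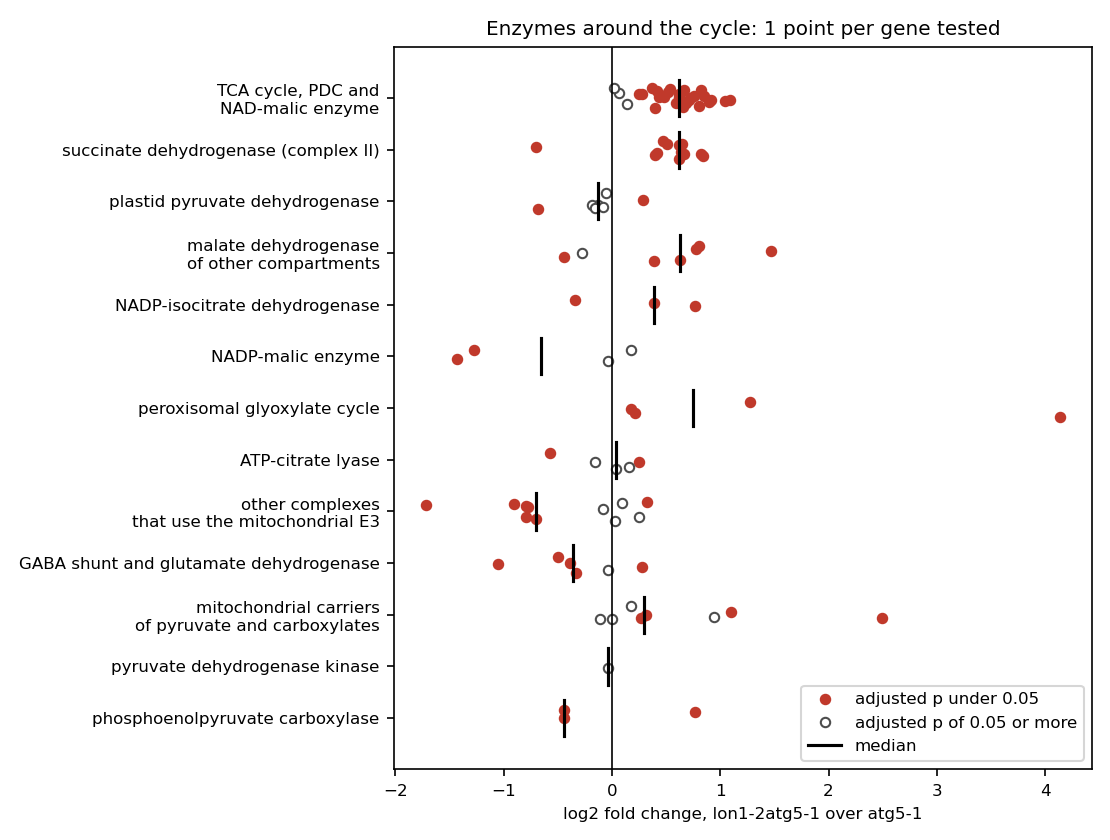
Log2 fold change of each gene tested, lon1-2atg5-1 over atg5-1 (horizontal axis), for the genes described here (top row) and 12 lists of related enzymes. Filled points passed an adjusted p of 0.05 in edgeR and black bars are medians. The median is 0.62 for succinate dehydrogenase and for the top row, and the other E3 complexes have a median of -0.70.

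Enzymes around the cycle were counted from 12 lists with 74 genes. Each count here and below stands beside shares of 27.7% higher and 25.8% lower over all genes tested. Succinate dehydrogenase, the step left out above, had 11 of 12 tested genes higher and 1 lower, with a median log2 fold change of 0.62. SDH8 (0.84), a plant-specific subunit, and SDH1-1 (0.83), the flavoprotein, rose most. SDH1-2, a second flavoprotein gene with 26 to 43 counts in lon1-2atg5-1 and 46 to 72 in atg5-1, was lower (-0.70, adjusted p = 0.0463, edgeR). The call was lost with DESeq2 (-0.71), with no filter on low counts (-0.70) and with limma on log2(FPKM + 1) (-0.34) and log2(FPKM + 0.1) (-0.66). It was also lost in 5 of 6 fits that left out a library, where the log2 fold change ranged from -0.80 (without atg5-1 replicate 3) to -0.49 (without atg5-1 replicate 1). The call held without lon1-2atg5-1 replicate 1. The plastid PDC, which makes acetyl-CoA for fatty acids, had 1 of 7 genes higher (LTA2, 0.29) and 1 lower (LPD1, its E3, -0.68), with a median of -0.13. The call of LTA2 was lost without atg5-1 replicate 2 (0.25) and without atg5-1 replicate 3 (0.27). Without lon1-2atg5-1 replicate 3, 4 genes of this list were lower.

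Malate dehydrogenases of other compartments had 5 of 7 genes higher and 1 lower (pMDH2, -0.44). The lower count was 0 in 5 of 6 fits that left out a library, and 1 without lon1-2atg5-1 replicate 3. The cytosolic cMDH2 had 1464, 1300 and 1182 counts in lon1-2atg5-1, against 532, 461 and 440 in atg5-1, a log2 fold change of 1.47 (SE 0.096). The peroxisomal pMDH1 (0.80) and the plastid plNAD-MDH (0.77) also rose. Of the 3 NADP-isocitrate dehydrogenases, the mitochondrial mICDH (0.77) and the peroxisomal pICDH (0.39) rose and the cytosolic cICDH fell (-0.34, a call that held only without replicate 3 of lon1-2atg5-1 among fits that left out a library, whose values ranged from -0.48 to -0.25). NADP-malic enzyme, which makes pyruvate from malate outside mitochondria, had 0 of 4 genes higher and 2 lower, NADP-ME1 (-1.43) and NADP-ME3 (-1.27), both under 110 counts in every library. Without lon1-2atg5-1 replicate 3, 1 gene of this list was higher.

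The glyoxylate cycle, which bypasses the decarboxylating steps of the TCA cycle in peroxisomes of oil-storing seedlings, had 4 of 4 tested genes higher, or 2 without atg5-1 replicate 2 and 2 without atg5-1 replicate 3. Isocitrate lyase (ICL) had 1925, 1317 and 1165 counts in lon1-2atg5-1, against 100, 79 and 72 in atg5-1 (log2 fold change 4.14, SE 0.22, adjusted p = 8.83e-06, edgeR). Malate synthase (MLS) had 198, 173 and 260 counts in lon1-2atg5-1, against 92, 91 and 78 in atg5-1 (log2 fold change 1.28). Of the 5 maturing seed markers given above, 4 rose in the same libraries, and EM6 did not pass the test (log2 fold change -0.51). Their part in this result was not tested.

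Mitochondrial carriers of pyruvate and carboxylates had 4 of 8 genes higher and 0 lower, with 3 to 6 higher when a library was left out. The dicarboxylate carriers DIC3 (2.49) and DIC1 (1.10) changed most. DIC1 had 1950, 926 and 859 counts in lon1-2atg5-1, against 615, 557 and 581 in atg5-1, so replicate 1 of lon1-2atg5-1 stood well above the rest. Without that library the log2 fold change of DIC1 was 0.63, and it still passed the test. ATP-citrate lyase, which makes cytosolic acetyl-CoA, had 1 of 5 genes higher (ACLB-1, 0.25) and 1 lower (ACLA-2, -0.58), or 2 higher and 2 lower without lon1-2atg5-1 replicate 3. Of 3 phosphoenolpyruvate carboxylase genes tested, whose enzyme makes oxaloacetate in the cytosol, PPC1 (0.77) was higher and PPC2 (-0.45) and PPC3 (-0.44) were lower. The PPC2 call was lost without atg5-1 replicate 3 (-0.42) and the PPC3 call without atg5-1 replicate 1 (-0.37). The GABA shunt and glutamate dehydrogenase list, which feeds carbon from amino acids into the cycle, had 1 of 6 genes higher (SSADH, 0.28) and 4 lower, led by GDH2 (-1.05) and GDH1 (-0.50), both for glutamate dehydrogenase. The call of GAD1 (-0.39), also lower, was lost without atg5-1 replicate 1 (-0.33) and without lon1-2atg5-1 replicate 2 (-0.40).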

How the data were processed

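The labels gave the genotype of each library. The authors trimmed paired reads with Trimmomatic 0.36, aligned them to TAIR10 with HISAT2 2.2.1.0 and counted reads per gene with HTSeq. The deposited counts are raw. The deposited FPKM values, named by the authors as coming from Cufflinks, equalled the count divided by exonic length and library total in all 23819 genes with a count to within a relative error of 6.15e-08. The tables hold 0 genes of the organelle genomes.

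Counts were filtered with filterByExpr, TMM-normalized and tested in edgeR 4.0.16 (quasi-likelihood test, R 4.3.3), with Benjamini-Hochberg adjustment over 20157 genes. Genes were called at an adjusted p under 0.05. Standard errors were obtained by dividing the size of each log2 fold change by the root of its F statistic, and are approximate. FPKM, which is per length, served for levels and ratios between genes. The smallest chi-square per degree of freedom between libraries of a genotype was 3.92, so none was a duplicate. Replicates are biological triplicates by the description of the series. Intervals cover counting error only.

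Alternatives were DESeq2 1.42.0, library size alone, no filter or at least 10 counts, a replicate block, limma 3.58.1 on log2(FPKM + 1) and log2(FPKM + 0.1), other thresholds and each library left out. The fits were also run on simulated counts with the same variation in both genotypes. Variation differed between genotypes in these data, so the simulation does not give the error rates of the fits here. Exons were compared with BLAST 2.17.0 at 90% identity over 100 bp. Promoters were read from TAIR10.1, whose exonic lengths matched those behind the FPKM values.

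The genes, lists and tests were chosen with earlier results of these data known. Values in every library are given for the gene with the largest fold change of each step, those past 1.5-fold, those too low to test and those that did not pass. The values of 1 gene are not reported here, though it is part of the counts and sums. MAB1 was added for its subunit, and GLDH1, SSADH, pMDH2, NRT2.1 and EM6 were named after their values were seen. Of each related list at most the 3 called genes with the largest fold change are named. PDK is named as the sole gene of its list.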

Additional observations from a re-analysis of the deposited data

How the results depend on the processing

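The count of 26 genes called higher was 26 or 27 under every alternative fit, with 27 when counts were not filtered, without atg5-1 replicate 2 and without atg5-1 replicate 3, and 0 were lower in each. Genes tested numbered 31 without the filter and 30 in either of those fits without a library, in place of 29. Other thresholds moved the count of 26 further: 17 were higher at an unadjusted p under 0.05 and over 1.5-fold, 17 at an adjusted p under 0.05 and over 1.5-fold, and 2 over 2-fold. Leaving out one library gave 26 to 27 genes higher, 15 to 18 of them over 1.5-fold, a median log2 fold change of 0.60 to 0.67, and 8820 to 11536 calls over all genes. Only 2 genes changed sign in any fit, both uncalled throughout. IAR4 was -0.0111 with library size alone, -0.0137 with limma on log2(FPKM + 1), -0.0139 on log2(FPKM + 0.1), -0.0072 without atg5-1 replicate 2 and -0.0415 without lon1-2atg5-1 replicate 1. FUM2 was -0.0379 without lon1-2atg5-1 replicate 2. Over all fits without one library, IAR4 ranged from -0.0415 to 0.0528 and FUM2 from -0.0379 to 0.1908. The cause was not tested. Without the filter CSY5 was called higher (adjusted p = 0.00366). Over all genes tested, replicate numbers did not pair the libraries: correlations of same-numbered deviations were -0.037, -0.115 and -0.0099. Of the 29 genes described here, 22 were highest in replicate 1 within lon1-2atg5-1 and 22 in replicate 1 within atg5-1. The shares over all genes tested were 37.0% and 35.5%. The 29 genes share the same libraries, so these counts cannot decide whether replicate numbers pair the libraries. With the replicate number as a block, 26 genes were higher and calls over all genes were 10033, against 10781 without it. Depth limits what can be said of CSY5 and IDH3, and the exact permutation test used for the ratios of paralogs cannot give a p below 0.10 with 3 libraries a genotype.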
